A study of Homo sapiens with 6 samples.

Results

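The 44 genes described here build and serve the Golgi apparatus: the golgin tethers, the GRASP stacking proteins, the COPI and COPII vesicle coats with their ARF and SAR1 GTPases, the KDEL receptors and the CREB3 family of transcription factors. They were taken by name, and each of the 44 matched 1 of the 38900 Ensembl IDs in the deposited table. SEC12 was found under its present symbol, PREB. Testing needed an average of 10 or more normalized counts across all 6 libraries, which 13928 IDs reached, the 44 among them. Their levels came from polyA RNA sequencing of hTERT RPE1, a telomerase-immortalised human retinal pigment epithelial line. All cultures stood at full confluency for 5 days, a step the labels describe as inducing quiescence, and then received fresh medium for 6 hours. In 3 of them the medium held 100 nM combretastatin A4 (CA4), a tubulin-binding compound that takes microtubules apart, and in the other 3 it held 0.1% DMSO. The labels number the libraries 1 to 3 in each group, without saying whether they came from separate cultures, so the p-values measure only the spread between these libraries. All of them come from 1 cell line.

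The Golgi is a stack of flattened cisternae that receives secretory cargo from the endoplasmic reticulum (ER) in COPII vesicles, and COPI vesicles carry escaped ER proteins and recycling Golgi enzymes back. In animal cells the stacks are joined into a ribbon near the centrosome by transport along microtubules. When microtubules are taken apart the ribbon disperses into separate stacks beside the ER exit sites. Cells are also known to raise transcripts of Golgi proteins when Golgi function is disturbed, a reaction called the Golgi stress response. One reported arm of it runs through CREB3 and ARF4 and another through the factor TFE3.

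The libraries held from 19524936 to 22538004 reads, and 1 read was worth between 0.935 and 1.12 normalized counts. TUBB3, a beta tubulin whose mRNA falls when free tubulin rises, was at 6324 to 7766 normalized counts in DMSO and 917 to 1105 in CA4. Of 4 epithelial markers, the keratins KRT8 and KRT18 were at 8393 normalized counts or more in every library, while EPCAM reached at most 4.5 and CDH1 32.3. KRT18 lay higher in each CA4 library, from 11056 against at most 10397 in DMSO (limma adjusted p = 0.0849), and KRT8 overlapped. The 9 pigment epithelium markers summed to 723 to 1224 normalized counts in DMSO and 426 to 798 in CA4. Most of that was MITF, a regulator of pigment cells, at 322 to 1085 with overlapping groups (limma adjusted p = 0.1), followed by BEST1 at 42.5 to 99.7. RPE65, the defining enzyme of mature pigment epithelium, was at 20.6 to 40.8 in DMSO and lower in each CA4 library, at 13.5 to 18.9 (limma adjusted p = 0.347). PMEL and SERPINF1 stayed at 23.6 or below, RLBP1, LRAT and TYR at 5.7 or below, and TTR was at 0 in all 6 libraries. The highest sums of the photoreceptor, neuron and immune marker lists in any library were 362, 139 and 925 normalized counts, the last nearly all from CD68. The 3 endothelial markers PECAM1, CDH5 and VWF summed to 3224 in CA4 replicate 3 and to between 944 and 1616 in the other 5 libraries. Markers of cycling cells summed to 10058 and 8128 in replicate 1 of DMSO and CA4 and to between 2560 and 4842 in the other 4, with MKI67, a proliferation marker, at 1192 to 4849, so transcripts of cycling cells were present in every library.

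Of the 44 genes, 11 rose in CA4 and 0 fell, by limma's moderated test on log2(normalized count + 1) with p-values adjusted over all 13928 tested genes and a threshold of 0.05. The 11 were SEC23B, SEC24A, CREB3, SEC24D, USO1, PREB, GOLGA3, ARF4, GOLGA4, COPG1 and SEC23A. They make up 25% of the 44 genes, where 4.94% of all tested genes were past the threshold in either direction, 2.97% higher in CA4 and 1.97% lower. Their changes were moderate, between 1.24-fold for SEC23A and 1.62-fold for SEC23B. The median log2 fold change of the 44 was 0.24 and that of all tested genes was -0.008, and 38 of the 44 fold changes lay above 0 against 48.9% of all tested genes. In 28 of the 44 all CA4 libraries lay above all DMSO libraries, where 14.3% of all tested genes did so, and in 2 of them, COPG2 and CREB3L1, all lay below, as in 13.4% of tested genes. An unadjusted p under 0.05 was found for 27 of the 44, and for 23% of all tested genes. On recovered reads, edgeR called 11 of the 44, 10 of them shared with limma, and 4.62% of all tested genes, and DESeq2 called 20 of the 44 and 11.6% of all tested genes. Added up, the 44 genes made 0.706%, 0.683% and 0.693% of the normalized counts in DMSO replicates 1 to 3, and 0.801%, 0.752% and 0.755% in CA4. In bulk RNA a change of level per cell and a change in the share of cells that make a transcript cannot be told apart.

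**Figure D1:**
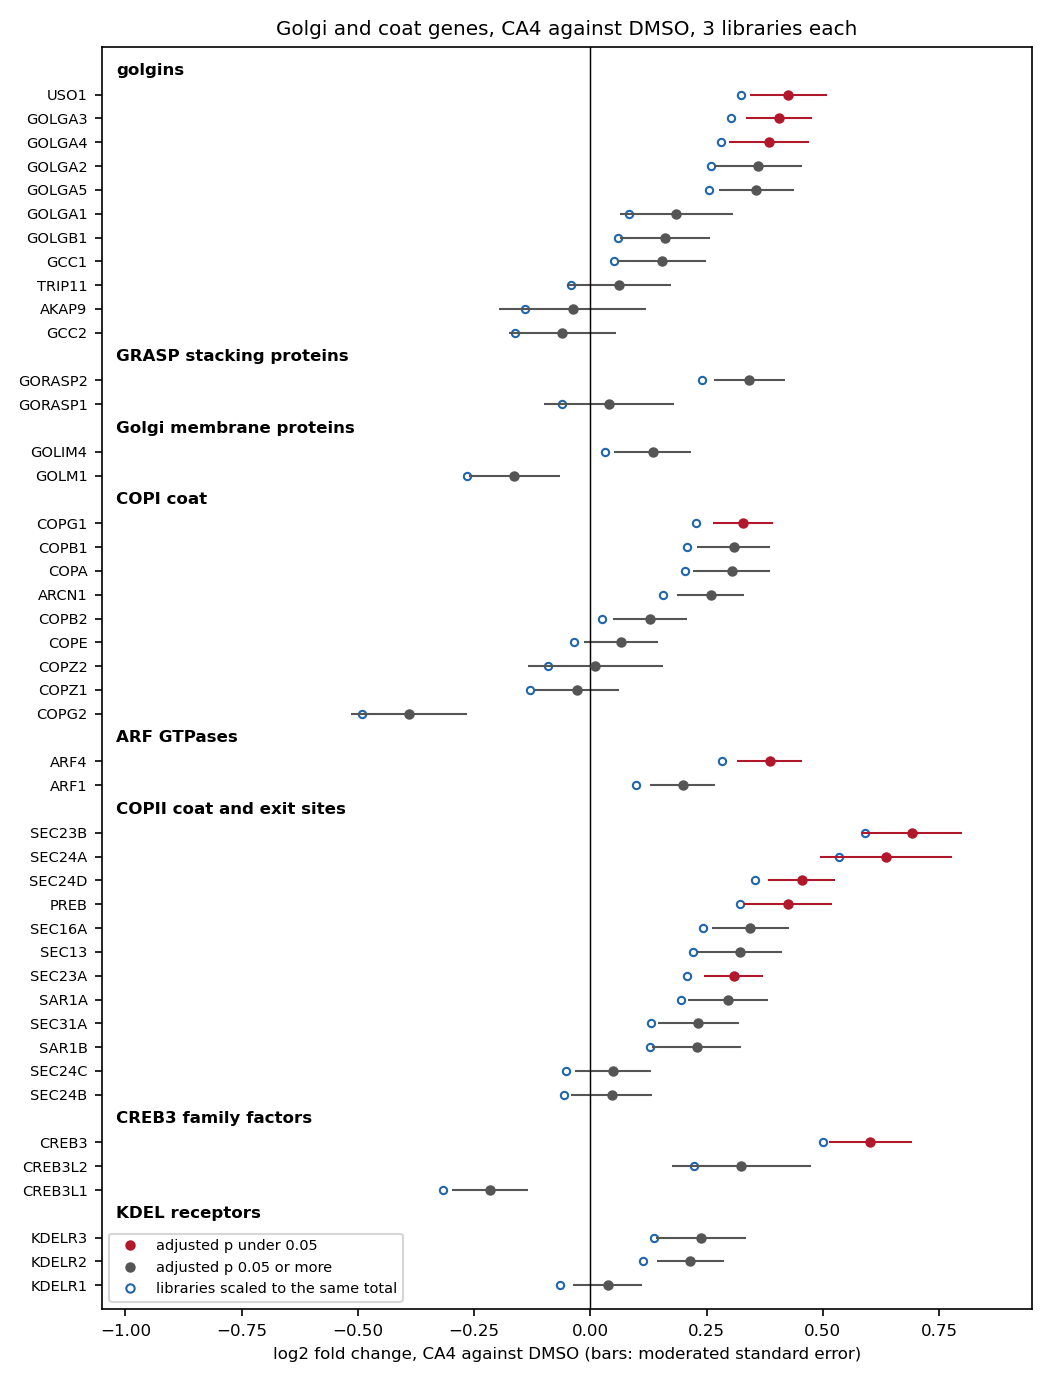
Log2 fold change of each of the 44 genes (horizontal axis, CA4 against DMSO, 3 libraries each) by role, with limma's standard error as a bar, and as open circles the value after scaling every library to the same total. Filled red circles mark the 11 genes past the threshold, 5 of them in the COPII group, and COPG2 and CREB3L1 lie farthest to the left.

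The number of calls depended on which libraries were in the fit. Of the 11 genes, each lost its call in at least 4 of the 6 fits that left out 1 library. Without DMSO replicate 1, 10 of the 44 passed and 7.14% of all tested genes, and without CA4 replicate 2, 6 of the 44 and 3.61%. In limma's test 0 of the 44 passed without any 1 of the other 4 libraries, where only 0.582% to 1.12% of all tested genes did. In those 4 fits 21 to 26 of the 44 still had an unadjusted p under 0.05. The share of all tested genes with such a p is not given here for these fits. The median of the 44 was as large without the library rich in endothelial markers, CA4 replicate 3, or without DMSO replicate 1, at 0.27 in both fits, and it was 0.22 without CA4 replicate 1. CA4 libraries also held more normalized counts in total, 21782521 to 22475620 against 20379289 to 20831985, and scaling every library to the same total shifted the median of all tested genes by -0.10. On that scale 3 of the 44, SEC23B, SEC24D and CREB3, were past the threshold (6.82%, with 5.76% of all tested genes past it and 2% higher in CA4), 31 of the 44 fold changes lay above 0 against 35.7% of all tested genes, and the median of the 44 was 0.13 against -0.109 for all tested genes. On both scales the median of the 44 lay above that of all tested genes.

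Promoters of these genes were compared because most of these genes lay higher in CA4. RefSeq promoter windows (GRCh38.p14), from 250 bases before to 50 after each start, were at hand for 39 of the 44. The 5 without one were GOLGA4, USO1, ARF4, SEC24D and KDELR2, so that 7 of the 11 genes that rose are covered. Both strands were searched for the motifs below, and each match is a match of letters, not a shown binding site. The motif ACGTGGC is the core of the Golgi stress response element, known as a target of TFE3, and 17 of the 39 windows held it, 43.6%, against 3.22% of all 35116 RefSeq windows, 4.38% of the 10369 windows of tested genes and 9.84% of 122 windows of other Golgi genes. TGACGTGG, an element bound by XBP1 and ATF6 in the unfolded protein response, can overlap it and was held by 10 of the 39, 25.6%, against 0.729% of all windows, 1% of those of tested genes and 3.28% of those of other Golgi genes. The cAMP response element TGACGTCA was in 2 of the 39, GCC1 and CREB3L2 (5.13%, against 1.85% of all windows, 3.27% of those of tested genes and 4.92% of those of the other Golgi lists described last). The ER stress element and the second ER stress element, known from chaperone promoters, were in 0 of the 39, and in 0.0769% and 0.0541% of all windows and 0.135% and 0.106% of those of tested genes.

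Of the 16 genes with a match before the RefSeq start, 6 had a stretch there that no exon of GENCODE 29 overlaps, and 4 of these are shown, leaving out GOLGA1 and CREB3L2. The other 10, CREB3 and SEC24A among them, overlap annotated exons of the same or another gene and are not shown. COPG1 (chr3:129249578-129249605, plus strand) is shown as a gene that rose. GOLGA5 (chr14:92794105-92794153, plus strand) and SAR1A (chr10:70170689-70170735, minus strand) had CA4 libraries that all lay above the DMSO libraries without passing the threshold. SEC24C (chr10:73744280-73744326, plus strand) holds the motif while its groups overlapped. All read 5′ to 3′ on the strand of the gene, and capitals mark the motif matches in either orientation, so that GCCACGT is the Golgi stress core read from the other strand. In GOLGA5 the core is fused with the unfolded protein response element.
COPG1: cctgcgcagagcgctgggcgACGTGGCc
GOLGA5: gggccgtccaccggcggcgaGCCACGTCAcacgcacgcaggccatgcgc
SAR1A: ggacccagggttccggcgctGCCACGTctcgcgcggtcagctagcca
SEC24C: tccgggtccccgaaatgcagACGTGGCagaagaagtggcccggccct
All 17 genes with ACGTGGC had fold changes above 0, and 15 with libraries scaled to the same total, where COPZ2 and SEC24C turned. Their median log2 fold change was 0.30 (0.20 at the same total), and 4 of them passed the threshold (COPG1, SEC23A, SEC24A and CREB3). Of the 22 without it, 16 were above 0 (11 at the same total), the median was 0.10 (-0.002 at the same total) and 3 passed, the other 4 that rose having no window. Among tested genes outside the 44, the 437 with the motif had a median of 0.081, with 61.1% above 0, and the 9893 without it a median of -0.02, with 47.2% above 0. In those 437 genes, 4.35% rose and 0.686% fell, against 2.95% and 2.22% of the 9893. Rises were also more frequent than falls with other motifs. Outside the 44, 7.45% of 94 genes with TGACGTGG rose and 0 fell, against 2.97% and 2.18% of those without it. Of 337 genes with TGACGTCA, 4.15% rose and 0.89% fell, against 2.97% and 2.2% of those without it. Their medians were 0.014 and 0.056, with 53.2% and 56.1% above 0. All 10 of the 44 with TGACGTGG had fold changes above 0 (median 0.31), and in most of them that motif overlapped an ACGTGGC match. These shares are descriptions and no test was made of them.

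**Figure D2:**
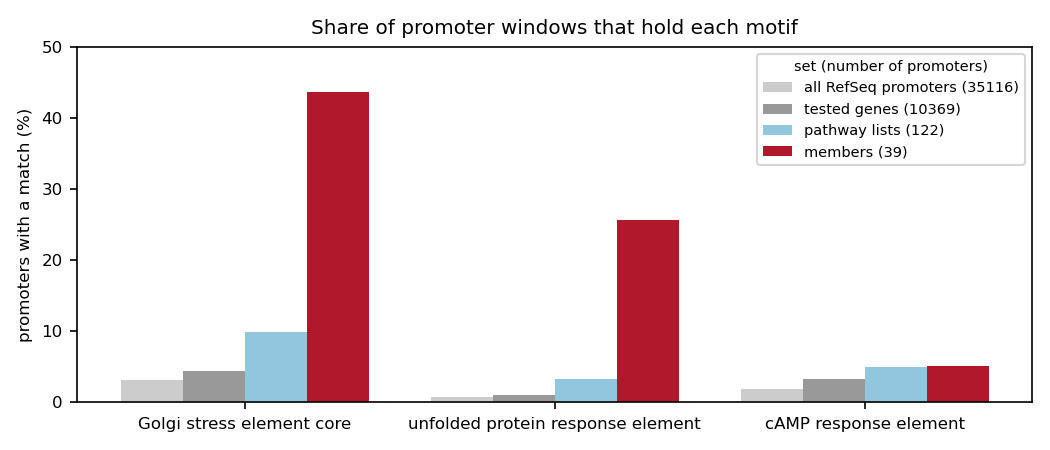
Share of promoter windows (vertical axis, percent) that hold each of 3 motifs, for all RefSeq windows, tested genes, the genes of 6 other Golgi pathway lists and the 44 Golgi and coat genes, of which 39 had a window. The bar of the Golgi stress core stands at 43.6% for the 39 windows and at 4.38% for tested genes.

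COPII is the coat that buds vesicles from ER exit sites, and 5 of its 12 genes rose. All 12 had fold changes above 0, 10 of them also with libraries scaled to the same total, and in 10 the groups did not overlap, all higher in CA4. Over all tested genes, 2.97% rose, 48.9% had fold changes above 0 (35.7% at the same total) and 14.3% lay higher without overlap. The median log2 fold change of the 12 was 0.31. Assembly begins when PREB (SEC12), an exchange factor in the ER membrane, loads SAR1 with GTP. PREB (chr2:27130756-27134675 in GENCODE 29, GRCh38) had 1052, 916 and 920 normalized counts in DMSO and 1358, 1253 and 1261 in CA4, in the order of the replicate numbers, which is used throughout. Each CA4 library lay above each DMSO library, with a log2 fold change of 0.43 ± 0.094 (standard error, adjusted p = 0.0479 in limma). SAR1A, the more studied of the SAR1 GTPases, had 4608, 4612 and 4763 normalized counts in DMSO and 6117, 5150 and 5951 in CA4, and it missed the threshold with 0.30 ± 0.086 (standard error, adjusted p = 0.0919 in limma). SAR1B, needed for export of large lipoproteins, had 1204, 1028 and 1060 normalized counts in DMSO and 1317, 1323 and 1213 in CA4, a log2 fold change of 0.23 ± 0.10 (standard error, adjusted p = 0.208 in limma). In neither SAR1 gene did the groups overlap.

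SEC23 and SEC24 form the inner layer of the coat, where SEC23 activates the GTPase of SAR1 and SEC24 binds cargo. SEC23B (chr20:18507482-18561415), whose loss causes a congenital anaemia, showed the highest fold change of the 44 genes. It had 1151, 1078 and 923 normalized counts in DMSO and 1810, 1636 and 1634 in CA4, a mean of 1051 ± 117 in DMSO and 1693 ± 101 in CA4 (n = 3 each, SD). The log2 fold change was 0.69 ± 0.11 (standard error, adjusted p = 0.0177 in limma). Its relative SEC23A (chr14:39031919-39109646), mutated in a syndrome of skull and bone growth, had 4855, 4935 and 4947 normalized counts in DMSO and 6098, 6109 and 6040 in CA4. Values within a group lay close together and the groups did not overlap, and the log2 fold change of SEC23A was 0.31 ± 0.064 (standard error, adjusted p = 0.0413 in limma). SEC23A passed in 0 of the 6 fits that left out 1 library. SEC24A (chr5:134648789-134727823), a cargo adaptor, had 1429, 1129 and 1330 normalized counts in DMSO and 2238, 1665 and 2162 in CA4, with CA4 replicate 2 the lowest of its group but above all DMSO values. Its log2 fold change was 0.64 ± 0.14 (standard error, adjusted p = 0.0487 in limma). SEC24D (chr4:118722823-118838683), an adaptor needed for procollagen export, had 5064, 4928 and 5101 normalized counts in DMSO and 7159, 6498 and 7053 in CA4, with all CA4 values well above the highest DMSO value. Its log2 fold change was 0.46 ± 0.072 (standard error, adjusted p = 0.0187 in limma).

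The other SEC24 genes did not pass. SEC24B was at 1065 ± 65.4 in DMSO and 1098 ± 29.8 in CA4 (n = 3 each, SD) and SEC24C at 5472 ± 260 in DMSO and 5663 ± 383 in CA4, and the groups overlapped in both. Their log2 fold changes of 0.046 and 0.049 became -0.056 and -0.053 with libraries scaled to the same total, so neither has a direction. Exons of AC022400.8, on the opposite strand, cover 42.9% of the exon bases of SEC24C in GENCODE 29, and whether the authors' counting used strand is not given in the sources used here.

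The outer cage of the coat is built of SEC13 and SEC31 on exit sites marked by SEC16A. SEC13, which also serves in the nuclear pore, had 2736, 2570 and 2819 normalized counts in DMSO and 3664, 3063 and 3444 in CA4. SEC31A had 7187, 6283 and 7433 normalized counts in DMSO and 7987, 7954 and 8554 in CA4. SEC16A, the scaffold of the exit site, had 3415, 3606 and 3347 normalized counts in DMSO and 4506, 4021 and 4655 in CA4. Groups did not overlap in any of these genes, but none passed, with log2 fold changes of 0.32, 0.23 and 0.34 and limma adjusted p-values of 0.0869, 0.168 and 0.0585.

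**Figure D3:**
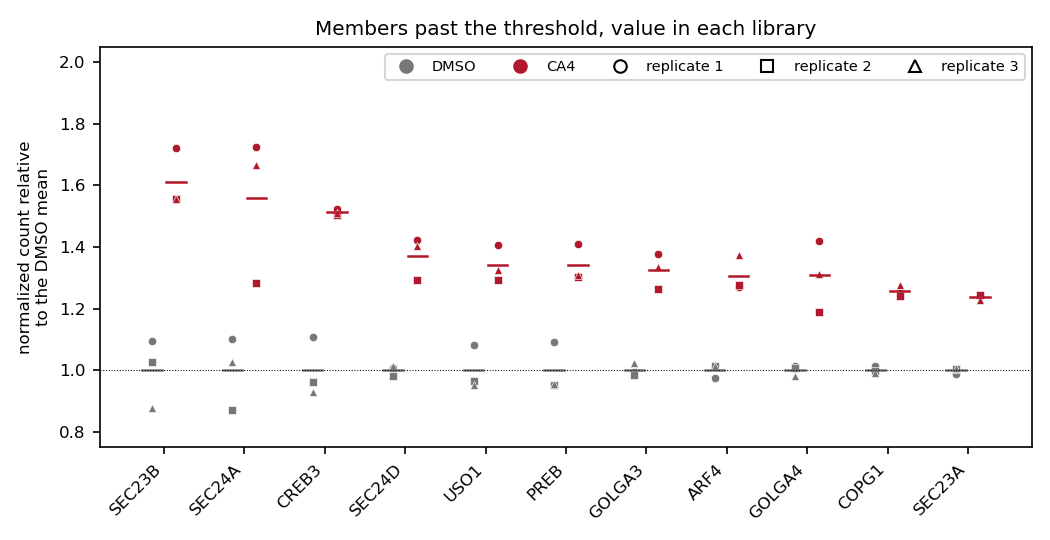
Normalized count of each of the 11 genes past the threshold in each library, divided by the gene's DMSO mean (vertical axis), with horizontal bars for group means and symbols for the replicate number. All CA4 points lie above all DMSO points of the same gene, and the group means of SEC23B and SEC24A are the highest.

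COPI is the coat of Golgi-derived vesicles, a complex called coatomer that binds membranes all at once when ARF is loaded with GTP. Of its 9 genes, 1 rose, 4 with that one lay higher in every CA4 library, 1 lay lower in every one, and the median log2 fold change was 0.13. Of all tested genes 2.97% rose, 14.3% lay higher and 13.4% lower without overlap, the last close to 1 gene in 9 (11.1%). COPG1 (chr3:129249606-129277773), the common gamma subunit, had 5682, 5588 and 5564 normalized counts in DMSO and 7013, 6955 and 7170 in CA4, with a log2 fold change of 0.33 ± 0.065 (standard error, adjusted p = 0.0347 in limma). COPG2, the alternative gamma subunit, was lower in each CA4 library, with 699, 664 and 565 normalized counts in DMSO and 477, 537 and 454 in CA4. Its log2 fold change of -0.39 ± 0.12 (standard error, adjusted p = 0.115 in limma) missed the threshold, and exons of other genes, MEST on the opposite strand among them, cover 11.3% of its exon bases.

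COPA, the alpha subunit, had 8176, 7860 and 8121 normalized counts in DMSO and 10766, 10042 and 9084 in CA4. COPB1, the beta subunit, had 4059, 3801 and 3708 normalized counts in DMSO and 5094, 4598 and 4639 in CA4. ARCN1, the delta subunit, had 5134, 4736 and 5099 normalized counts in DMSO and 6190, 5804 and 5910 in CA4. In each of these the CA4 libraries stood clear of the DMSO libraries, but the limma adjusted p-values of 0.0806, 0.0677 and 0.0851 missed the threshold, at log2 fold changes of 0.30, 0.31 and 0.26. The beta prime subunit COPB2, the epsilon subunit COPE and the zeta subunits COPZ1 and COPZ2 had overlapping groups, with log2 fold changes of 0.13, 0.066, -0.029 and 0.011. With libraries scaled to the same total, those of COPE and COPZ2 were -0.035 and -0.09.

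ARF1 is the GTPase that recruits coatomer at the Golgi, and ARF4 is a related ARF of the early secretory pathway that is a reported target of CREB3. ARF4 (chr3:57571363-57598220) rose, at 6973 ± 160 in DMSO and 9114 ± 408 in CA4 (n = 3 each, SD). Its libraries held 6788, 7060 and 7071 normalized counts in DMSO and 8853, 8904 and 9584 in CA4, and the log2 fold change was 0.39 ± 0.07 (standard error, adjusted p = 0.0275 in limma). Exons of the antisense gene ARF4-AS1 cover 11.6% of its exon bases. ARF1 had 8063, 8024 and 7527 normalized counts in DMSO and 9233, 8704 and 9167 in CA4, again with no overlap between groups, and a log2 fold change of 0.20 ± 0.07 (standard error, adjusted p = 0.148 in limma).

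CREB3 family factors are held in the ER membrane and are cut free in the Golgi to enter the nucleus. CREB3 itself (chr9:35732335-35737004) had 2061, 1791 and 1730 normalized counts in DMSO and 2834, 2802 and 2812 in CA4. The CA4 libraries were almost equal and all lay far above the DMSO libraries, with a log2 fold change of 0.60 ± 0.089 (standard error, adjusted p = 0.0158 in limma). Other genes, mostly GBA2 on the opposite strand, share 10.5% of the exon bases of CREB3. CREB3L2, a factor reported to drive SEC23A in cartilage, had 5351, 3992 and 5011 normalized counts in DMSO and 6985, 5084 and 5931 in CA4. Its groups were wide and overlapping, with a log2 fold change of 0.33 ± 0.15 (standard error, adjusted p = 0.245 in limma). Each CA4 library of CREB3L2 lay above the DMSO library of the same number, and it passed with the replicate number as a block. CREB3L1, known from collagen-secreting bone cells, was lower in each CA4 library, with 3778, 4328 and 3848 normalized counts in DMSO and 3404, 3326 and 3547 in CA4. Its log2 fold change of -0.22 ± 0.082 (standard error, adjusted p = 0.17 in limma) did not pass.

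Golgins are long coiled-coil proteins that catch vesicles at the Golgi surface. Of 11 tested, 3 rose, 9 had fold changes above 0 (8 with libraries scaled to the same total), and in 7 the groups did not overlap, all of them higher in CA4. The shares over all tested genes were 2.97% for a rise, 48.9% above 0 (35.7% at the same total) and 14.3% higher without overlap. USO1 (chr4:75724593-75814286), a tether for vesicles arriving from the ER, had 3572, 3184 and 3136 normalized counts in DMSO and 4641, 4261 and 4374 in CA4, with a log2 fold change of 0.43 ± 0.083 (standard error, adjusted p = 0.0334 in limma). GOLGA3 (chr12:132768909-132828858), which helps dynein hold the Golgi near the centrosome, had 3890, 3842 and 3993 normalized counts in DMSO and 5378, 4936 and 5216 in CA4, with a log2 fold change of 0.41 ± 0.071 (standard error, adjusted p = 0.0239 in limma). GOLGA4 (chr3:37243177-37366751), a tether of the trans-Golgi, had 2986, 2971 and 2893 normalized counts in DMSO and 4192, 3512 and 3873 in CA4, with no overlap between the groups. Its log2 fold change was 0.38 ± 0.086 (standard error, adjusted p = 0.0487 in limma), just inside the threshold, while GORASP2 and GOLGA5 lay just outside it.

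GOLGA5, a membrane-anchored golgin of the stack rims, had 1173, 1128 and 1070 normalized counts in DMSO and 1442, 1404 and 1470 in CA4, with a log2 fold change of 0.36 ± 0.081 (standard error, adjusted p = 0.0508 in limma). GOLGA2, the cis-Golgi partner of USO1, had 3028, 3239 and 3588 normalized counts in DMSO and 4341, 3871 and 4441 in CA4, with a log2 fold change of 0.36 ± 0.10 (standard error, adjusted p = 0.0727 in limma). Neither showed overlap between groups. GOLGA1 and GCC1, tethers of the trans-Golgi, also lay higher in each CA4 library, by 0.19 and 0.15 on the log2 scale, with limma adjusted p-values of 0.412 and 0.384. Exons of SCAI on the same strand cover 14.7% of the exon bases of GOLGA1. GOLGB1 (giantin), a long golgin of the stack rims, had overlapping groups at 3539 ± 368 in DMSO and 3946 ± 242 in CA4 (n = 3 each, SD). So did TRIP11, GCC2 and AKAP9, the last a scaffold for microtubule nucleation at the Golgi, with log2 fold changes of 0.061, -0.06 and -0.038. That of TRIP11 became -0.041 with libraries scaled to the same total, and RGPD5 and other genes share 14.6% of the sequence words of GCC2.

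Both GRASP proteins link cisternae, GORASP1 on the cis side and GORASP2 on the medial side. GORASP2 had 2749, 2774 and 2846 normalized counts in DMSO and 3529, 3326 and 3770 in CA4, with no overlap, and a log2 fold change of 0.34 ± 0.077 (standard error, adjusted p = 0.0502 in limma), the nearest miss of the 44 genes. GORASP1 had 1012, 1098 and 1341 normalized counts in DMSO and 1135, 1056 and 1355 in CA4, with overlapping groups and a log2 fold change of 0.041 ± 0.14 (standard error, adjusted p = 0.896 in limma), which was -0.06 with libraries scaled to the same total. Neither GRASP passed in limma, although 1 of the 2 had an unadjusted p under 0.05, and edgeR called 0 of them and DESeq2 1, where 4.94% of all tested genes passed in limma, 23% had such a p, and edgeR called 4.62% and DESeq2 11.6%. Among Golgi membrane proteins, GOLIM4, which recycles between Golgi and endosomes, lay a little higher in each CA4 library, at 3191 ± 258 in DMSO and 3494 ± 80.8 in CA4 (n = 3 each, SD, limma adjusted p = 0.39). GOLM1, a Golgi protein raised in liver disease, overlapped at 2491 ± 180 in DMSO and 2227 ± 209 in CA4 (limma adjusted p = 0.372).

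KDEL receptors return escaped ER chaperones from the Golgi in COPI vesicles. KDELR2 had 7488, 6917 and 7440 normalized counts in DMSO and 8695, 8541 and 8122 in CA4, and 9.42% of its exon bases are shared with DAGLB on the same strand. KDELR3 had 1372, 1330 and 1472 normalized counts in DMSO and 1656, 1791 and 1488 in CA4. In both the groups stayed apart, with log2 fold changes of 0.22 and 0.24 that missed the threshold (limma adjusted p = 0.13 and 0.197). KDELR1 (-0.065 on the log2 scale with libraries scaled to the same total) overlapped at 3829 ± 227 in DMSO and 3923 ± 57.8 in CA4 (n = 3 each, SD). Of the 3 receptors, 0 passed in limma, edgeR or DESeq2, and 2 had an unadjusted p under 0.05. The shares of all tested genes were 4.94%, 4.62%, 11.6% and 23%, in that order, so 0 calls among 3 genes says little.

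Related genes were also compared within each library, where the ratio of one gene to another does not depend on how libraries are scaled. The ratio holds no correction for gene length, so only its change is read. The pairs were added after values had been seen. Over 11 pairs, the log2 ratio separated the groups in 8, where 27.7% of single tested genes did so and no share over other pairs was computed, and the exact two-sided permutation test gave p = 0.1 in each of these, the smallest that 3 libraries against 3 allow and 0.138 after Benjamini-Hochberg adjustment over the 11, so no pair could pass. The ratio of COPG1 to COPG2 differed most, by 0.72 ± 0.12 between CA4 and DMSO (difference of mean log2 ratios ± its standard error, n = 3 each), with 3.02, 3.07 and 3.30 in DMSO and 3.88, 3.69 and 3.98 in CA4. SEC24A against SEC24B differed by 0.59 ± 0.17, and SEC24D against SEC24C by 0.41 ± 0.043, in the latter with -0.17, -0.077 and -0.11 in DMSO and 0.23, 0.28 and 0.34 in CA4. SEC23B against SEC23A differed by 0.39 ± 0.11. Both of these genes rose. CREB3L2 against CREB3L1 differed by 0.54 ± 0.23, GORASP2 against GORASP1 by 0.30 ± 0.12, ARF4 against ARF1 by 0.19 ± 0.059 and KDELR2 against KDELR1 by 0.18 ± 0.085. The groups overlapped for KDELR3 against KDELR1 (0.20 ± 0.11), SAR1A against SAR1B (0.067 ± 0.13) and COPZ1 against COPZ2 (-0.04 ± 0.14).

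**Figure D4:**
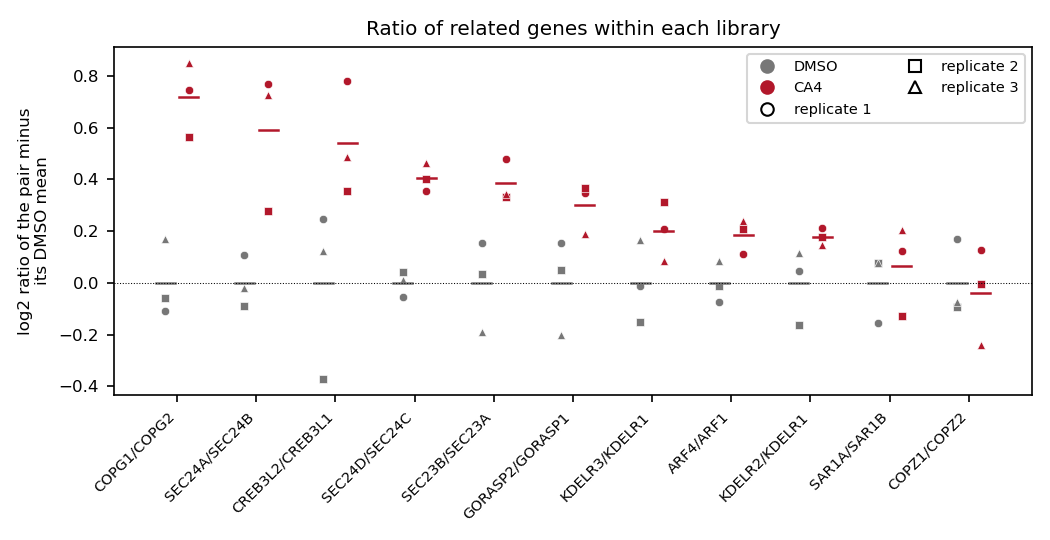
Log2 ratio of 11 pairs of related genes in each library, minus the pair's mean in DMSO (vertical axis), with bars for group means. The CA4 points stand apart from the DMSO points in 8 pairs, farthest for COPG1 with COPG2, and mix with them for KDELR3 with KDELR1, SAR1A with SAR1B and COPZ1 with COPZ2.

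Around these 44 genes, 6 lists of other Golgi genes held 144 tested genes, of which 8 rose and 1 fell, 6.25% in all. Of all tested genes 4.94% passed, 2.97% higher in CA4 and 1.97% lower. The median log2 fold change of the 144 was 0.098, where that of all tested genes was -0.008. With libraries scaled to the same total the medians were -0.003 and -0.109. Of the 144, 92 had fold changes above 0 (48.9% of all tested genes), 50 lay higher without overlap (14.3% of all) and 9 lower (13.4%), and 47 had an unadjusted p under 0.05 (23% of all). Among 24 regulators and cargo proteins of COPI, 3 rose, among them ARFGAP1 and ARFGAP3, which switch ARF off on COPI vesicles. ARFGAP1 had 4336, 4479 and 4337 normalized counts in DMSO and 6100, 6282 and 7259 in CA4, a log2 fold change of 0.57 ± 0.086 (standard error, adjusted p = 0.0164 in limma). ARFGAP3 had 1657, 1629 and 1643 normalized counts in DMSO and 2433, 2141 and 2628 in CA4, and its log2 fold change was 0.54 ± 0.094 (standard error, adjusted p = 0.0233 in limma). Each CA4 library lay above each DMSO library in both genes, and both also passed with libraries scaled to the same total. Leaving out 1 library ended the call of ARFGAP1 in 3 and of ARFGAP3 in 4 of 6 fits.

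In a list of 15 genes that attach the Golgi to microtubules and motors, 2 rose and 1 fell in limma, where 2.97% of all tested genes rose and 1.97% fell. In edgeR 1 of the 15 passed (4.62% of all), in DESeq2 5 (11.6%), and 7 had an unadjusted p under 0.05 (23%). CDK5RAP2, which anchors microtubule nucleation at centrosome and Golgi, had 1284, 1296 and 1082 normalized counts in DMSO and 823, 671 and 613 in CA4, the deepest fall here at -0.80 ± 0.14 (standard error, adjusted p = 0.0217 in limma). BICD1, a dynein adaptor for Golgi vesicles, had 983, 754 and 959 normalized counts in DMSO and 1460, 1235 and 1781 in CA4, with a log2 fold change of 0.73 ± 0.16 (standard error, adjusted p = 0.0483 in limma). PDE4DIP (myomegalin), a relative of CDK5RAP2 at the Golgi, had 3257, 3795 and 3590 normalized counts in DMSO and 5315, 4752 and 4400 in CA4 and a log2 fold change of 0.44 ± 0.10 (standard error, adjusted p = 0.0489 in limma), and it passed in 0 of the 6 leave-one-out fits, CDK5RAP2 and BICD1 in 2 each. With libraries scaled to the same total only CDK5RAP2 of these 3 passed, at -0.90 on the log2 scale.

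The remaining lists held few calls, and their counts stand beside 2.97% of all tested genes that rose, 23% with an unadjusted p under 0.05, 4.62% called by edgeR and 11.6% by DESeq2. Of 39 Golgi SNAREs, Rab GTPases and tethers, 1 rose, the SNARE BET1L, at 1346 ± 107 in DMSO and 2017 ± 171 in CA4 (n = 3 each, SD, log2 fold change 0.58, limma adjusted p = 0.0229), while edgeR called 1, DESeq2 7, and 17 had an unadjusted p under 0.05. Of 28 other Golgi proteins, 2 rose: TMEM165, an ion transporter needed for glycosylation, by 0.48 (limma adjusted p = 0.0246) and GOLPH3, which links the trans-Golgi to actin, by 0.39 (limma adjusted p = 0.0285), both on the log2 scale. Leaving out 1 library ended the call of BET1L in 4, of TMEM165 in 4 and of GOLPH3 in 5 of 6 fits, and with libraries scaled to the same total BET1L passed while TMEM165 and GOLPH3 did not. On that scale the SNARE VAMP4, named after its values were seen, also passed, with a log2 fold change of -0.56 (adjusted p = 0.0461 in limma, against 0.078 as deposited). Among 22 cargo receptors and exit-site proteins 0 passed in limma (4 with an unadjusted p under 0.05, 0 in edgeR, 3 in DESeq2), and the cargo receptor LMAN1 came nearest, at 5808 ± 296 in DMSO and 7204 ± 277 in CA4 (limma adjusted p = 0.0572). Among 16 other Golgi stress factors and reported targets 0 passed in limma (6 with an unadjusted p under 0.05, 0 in edgeR, 4 in DESeq2). There the nearest was ACBD3, a partner of giantin, at 1817 ± 120 in DMSO and 2381 ± 150 in CA4 (n = 3 each, SD, limma adjusted p = 0.0513), while TFE3 itself overlapped at 2075 ± 204 in DMSO and 2283 ± 78.5 in CA4.

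**Figure D5:**
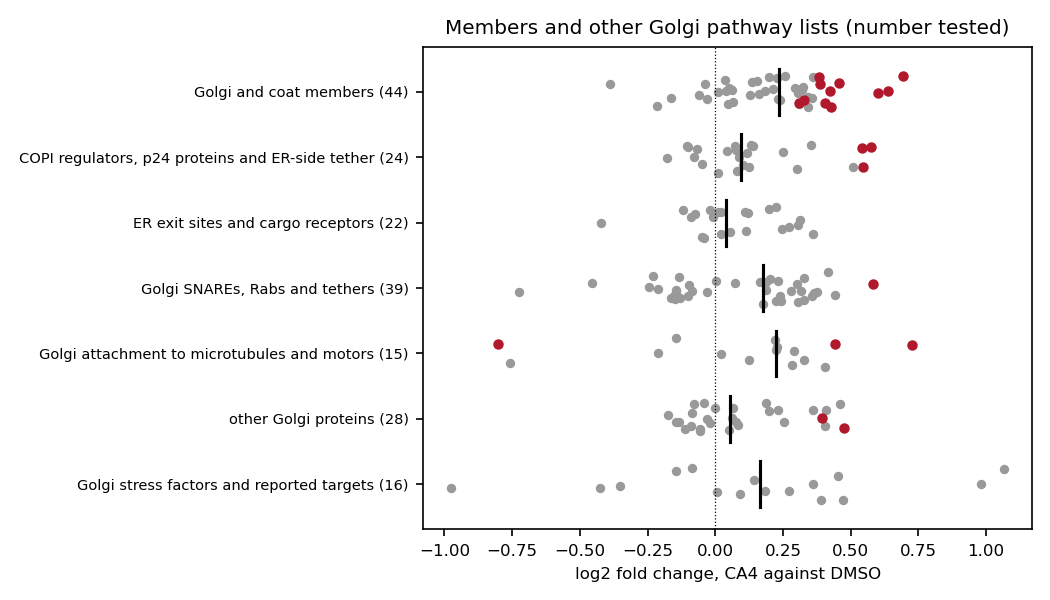
Log2 fold change of each tested gene (horizontal axis) in the 44 Golgi and coat genes and in 6 other Golgi lists, with the number tested in parentheses, the median as a black bar and genes past the threshold in red. The median stands at 0.24 for the 44 genes and between 0.04 and 0.22 in the other lists.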

How the data were processed

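RNA levels were measured in 6 polyA libraries, 3 from CA4 cultures and 3 from DMSO cultures, grouped and numbered by their titles. Per the file headers the deposited table has 1 column per library. Its deposited values are a signal, normalized counts per gene. Judged from the values, they are read counts divided by 1 factor per library, since 100% were whole multiples of 1 step per column within 0.01, so reads could be recovered. Submitters' processing notes name GRCh38, Trim Galore 0.6.6, FastQC 0.12.1, Salmon 1.8.0, STAR 2.7.9a and DESeq2 1.44.0, with no role. The counter, annotation release and use of strand are not given in the sources used here. Estimated counts may split reads between genes that share sequence.

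Genes averaging 10 or more normalized counts were tested on log2(value + 1) with limma 3.58.1 (R 4.3.3), treatment only, mean trend, two-sided, Benjamini-Hochberg over 13928 genes. This scale understates changes of low genes. Recovered reads were also tested with edgeR 4.0.16 and DESeq2 1.42.0. Other alternatives were pseudocounts of 0.1 and 5, no filter or a mean of 50, 3 scalings, variance settings, the replicate number as a block, and each library left out. Libraries of a group differed beyond sampling noise (chi-square per degree of freedom 17.9 to 35.6). The scripts were tested on simulated data before use, with 200 of 13928 genes changed 2-fold. There limma recovered 52.5% of the changed genes, edgeR 51.5% and DESeq2 72.5%. Of the genes called, 6.25%, 6.36% and 22.5% were false, in that order, so DESeq2 counts are less strict.

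Members and lists were chosen with earlier results of these data known, and ratios of related genes were added after seeing values. Named are members past the threshold, those with an unadjusted p under 0.05 and no overlap, ARF4, the CREB3 family and the GRASPs with every library, other members by mean or fold change, and from each pathway list up to 3 genes past the threshold or the 1 nearest to it; TFE3 was added. Symbols come from the supplied tables and GENCODE 29, sequences from RefSeq. SURF4, on one list, was not analysed here, and 1 gene past the threshold on the COPI regulator list is not reported here.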

Additional observations from a re-analysis of the deposited data

How the results depend on the processing

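In the main test 11 of the 44 genes were past the threshold, with 4.94% of all tested genes. Counts of the 44 in other settings follow, with the share of all genes in the same fit in parentheses. They were 6 without a filter (2.65%), 3 with quantile normalization (4.37%), 3 with libraries scaled to the same total (5.76%) and 7 with the same 75th percentile (4.87%). Without the mean trend in limma the count was 0 (0.74%), with 21 of the 44 at an unadjusted p under 0.05. The count was 20 in DESeq2 (11.6%) and 11 in edgeR (4.62%). Every one of the 44 that passed in these settings was higher in CA4. SEC23B, SEC24D and CREB3 were the 3 under both quantile and same-total scaling. The median log2 fold change of the 44, 0.24, was 0.18 with quantile normalization, 0.13 with the same total and 0.20 with the same 75th percentile. All tested genes past the threshold numbered 688 (413 higher), 103 (51 higher) without the trend and 1613 (907 higher) in DESeq2, and 802 (279 higher) with the same total. Genes of the other lists numbered 9, 0 without the trend (limma) and 27 in DESeq2. Without 1 library the counts ran from 0 to 10 of the 44 (all higher), 81 to 994 of all genes (50 to 605 higher) and 0 to 14 of the other lists, and the median from 0.20 to 0.28. With the replicate block the counts were 23 of the 44 (22 higher), 2397 of all genes (1260 higher) and 35 of the other lists, all 11 among the 23. Same-numbered libraries had correlations of their deviations of 0.202, 0.159 and 0.059, all above 0 but low. The labels do not say whether same-numbered libraries share a culture, and these values do not settle it. The main test did not take the numbers as pairs, and it may miss changes if they are pairs. Signs turned for 10 of the 44, all between -0.06 and 0.066 in the full data: in the 75th percentile scaling COPZ2 was at -0.022, with quantile normalization SEC24C at -0.059 and KDELR1 at -0.079, and with the same total TRIP11 at -0.041, GORASP1 at -0.06, COPE at -0.035, COPZ2 at -0.09, SEC24B at -0.056, SEC24C at -0.053 and KDELR1 at -0.065. Without 1 library the log2 fold changes that turned ran as follows: TRIP11 -0.009 to 0.15, GORASP1 -0.061 to 0.16, COPZ2 -0.11 to 0.11, AKAP9 -0.22 to 0.07, COPZ1 -0.10 to 0.019, SEC24B -0.006 to 0.078, KDELR1 -0.005 to 0.08, SEC24C -0.005 to 0.089 and GCC2 -0.17 to 0.022. The other 34 of the 44 genes kept their sign in each of the 18 alternatives. The cause of these differences was not tested. The lowest value of the 44 genes in any library was 454 normalized counts, for COPG2.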
